A study of Mus musculus with 12 samples.

Results

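The 6 genes described here, Fhit, Wwox, Immp2l, Lrp1b, Csmd1 and Dlg2, are very large genes at chromosomal fragile sites. They were chosen by name among the 20293 autosomal gene names of the array, and all 6 were found, with 862 of the 107200 probes in named autosomal genes. Genomic DNA from 12 mouse tumours had been hybridised, 1 array per tumour, to Agilent arrays for comparative genomic hybridisation. Tumour DNA was labelled with Cy5 and compared with normal kidney DNA of C57BL/6 mice labelled with Cy3. Each value is a log2 ratio of tumour over reference, set to 0 at the most frequent autosomal level of its array. All tumours came from C57BL/6 mice. Mutyh is the DNA glycosylase that removes adenine paired with oxidised guanine. Treated mice were males that received Fe-NTA (ferric nitrilotriacetate, a chelated iron that oxidises DNA and lipids in kidney tubules) as 5 intraperitoneal injections in each of 12 weeks. They started on 3 mg of iron per kg in week 1 and were given 5 mg of iron per kg over the next 11 weeks. Mice were killed at about 120 weeks.

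The renal cell carcinomas were KO1080, KO1097 and KO1134 from treated Mutyh knockout mice and WT1179 from a treated wild-type mouse. The malignant lymphomas were KO1077 and KO1111 from treated knockout mice, KO1414 from an untreated knockout mouse, WT1113, WT1114 and WT1121 from treated wild-type mice, and WT1405 and WT1420 from untreated wild-type mice. Each tumour carries the number of its animal. There was no untreated carcinoma. The 4 carcinomas shared slide 1, so that tumour type and slide cannot be told apart for them. KO1077, KO1111, WT1113 and WT1114 shared slide 2, and the other 4 lymphomas shared slide 3.

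Common fragile sites are chromosome regions that form gaps or breaks in metaphase when DNA replication is slowed. Many of them lie in very large genes, where transcription and replication overlap in time and replication finishes late, and deletions inside such genes are frequent in human cancers and cell lines. In a comparative hybridisation, a deletion inside a gene appears as a run of neighbouring probes below the rest of the gene, whereas loss or gain of a chromosome moves the gene and its neighbours together.

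A Mutyh probe on chromosome 4 (mm9, chr4:116490496-116490555) lay between -3.22 and -2.40 in the 6 knockout tumours and between -0.76 and 0.14 in the 6 wild-type tumours, and these ranges do not overlap. The other Mutyh probe (chr4:116480656-116480715) lay between -0.57 and 0.28 in the knockout and between -0.83 and 0.20 in the wild-type tumours, and did not separate them. Probe noise, taken from differences between neighbouring probes, ran from 0.115 in KO1097 to 0.171 in KO1111 on the log2 scale, with WT1114 at 0.168. On every array about 99.9% of spots stood well above background. With 12 arrays, comparisons between groups are of limited precision.

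Each of the 6 genes was covered evenly, with 1 exception. Lrp1b (chr2:40459693-42506541, mm9) had 203 probes and Fhit (chr14:10384642-11985470) had 165. Csmd1 (chr8:15906970-17531172) also had 165 and Dlg2 (chr7:98245648-99594310) had 145. Immp2l (chr12:41754734-43049365) had 94 probes and Wwox (chr8:116971226-117871402) had 90. The positions are the outermost probes that carry the gene name. The array files name the gene of a probe but not its exon or intron. Median distance between neighbouring probes was 8.99 to 9.88 kb, and 5 neighbouring probes spanned a median of 37.1 kb in Dlg2 to 40.5 kb in Wwox. The exception was Immp2l, which had no probe over 381 kb starting 539 kb into the gene. The largest gap in the other 5 genes was 18.5 to 19.8 kb.

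A few single probes inside these genes stood 4 or more noise SDs from their chromosome's median in at least 4 tumours. They are 60-base or 59-base oligonucleotides of the array, read from the deposited files, and are shown because their values recur across tumours and because several of the runs described further on contain one of them. They are written 5′ to 3′ in lower case, with no part singled out.
Csmd1, chr8:17221593-17221652: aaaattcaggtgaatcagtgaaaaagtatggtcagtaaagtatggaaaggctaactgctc
Csmd1, chr8:17518593-17518652: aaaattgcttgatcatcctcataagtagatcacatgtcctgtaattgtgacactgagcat
Dlg2, chr7:98714968-98715027: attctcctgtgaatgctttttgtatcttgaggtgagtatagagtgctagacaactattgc
Wwox, chr8:117371416-117371474: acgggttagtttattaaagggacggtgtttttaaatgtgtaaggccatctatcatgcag
Immp2l, chr12:42077999-42078058: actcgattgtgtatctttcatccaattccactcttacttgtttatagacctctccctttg

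Relative to its chromosome's median, the Csmd1 probe at 17221593 ranged from 0.24 in KO1097 to 1.33 in WT1114, with a median of 0.90, and was far from the chromosome in 11 of 12 tumours. The Csmd1 probe at 17518593 ranged from 0.18 to 1.10, with a median of 0.80, and was far in 9 tumours. Both were above the chromosome in every tumour. The Dlg2 probe ranged from 0.03 in KO1080 to 1.07 in WT1420 and the Wwox probe from -0.03 in KO1414 to 0.79 in WT1179. The Immp2l probe followed the slide. It lay at -0.54, -0.54, -0.65 and -0.64 in KO1414, WT1121, WT1405 and WT1420 on slide 3. On slide 2 it lay at 0.34, 0.41, 0.12 and 0.22 in KO1077, KO1111, WT1113 and WT1114. The 4 carcinomas on slide 1 lay between the other slides, from -0.38 to -0.01.

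Values far from the chromosome were no more frequent in the 6 genes than over all named genes. The share of probe values 4 or more noise SDs from the chromosome was 0.246% in Lrp1b, 0.632% in Dlg2, 0.657% in Fhit, 0.709% in Immp2l, 0.926% in Wwox and 1.27% in Csmd1. Over all named autosomal genes it was 1.45%, which counts values inside larger altered stretches as well as isolated probes. Probes far in at least 4 tumours were 1.21% of probes in Csmd1, 1.11% in Wwox, 1.06% in Immp2l and 0.69% in Dlg2. In Fhit and Lrp1b there were 0 such probes. Over all named autosomal genes their share was 0.794%. The shares in Csmd1, Wwox, Immp2l and Dlg2 rest on 1 or 2 probes per gene. GC content of the probes averaged 36.6% in the 6 genes and 36.8% over all autosomal probes.

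No member showed an intragenic deletion under the rule used, and 1 intragenic run was called in 72 pairs of gene and tumour. In each tumour, the gene with 500 kb on both sides was searched for the run of at least 5 neighbouring probes that stood out most from the rest of the window. A run was called where its mean and its median both differed by at least 0.25 from the rest and its z, the difference over its error from probe noise, was at least 5. Over all 1020 autosomal genes with at least 20 probes, 150 of 12240 pairs were called, which is 1.23%. Of these calls 63 had both ends inside the gene, which is 0.515% of pairs, and the others reached into or across the flanks. Without the stretch of chromosome 4 around Mutyh and the antigen receptor loci, 0.873% of 12031 pairs were called. The 1 call in 72 pairs is 1.39%, and nothing particular to the 6 genes can be read from a single call. The median z over the 72 pairs was 3.52, against 3.26 over all pairs. It was 3.50 over 46 other large genes, described further on.

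**Figure D1:**
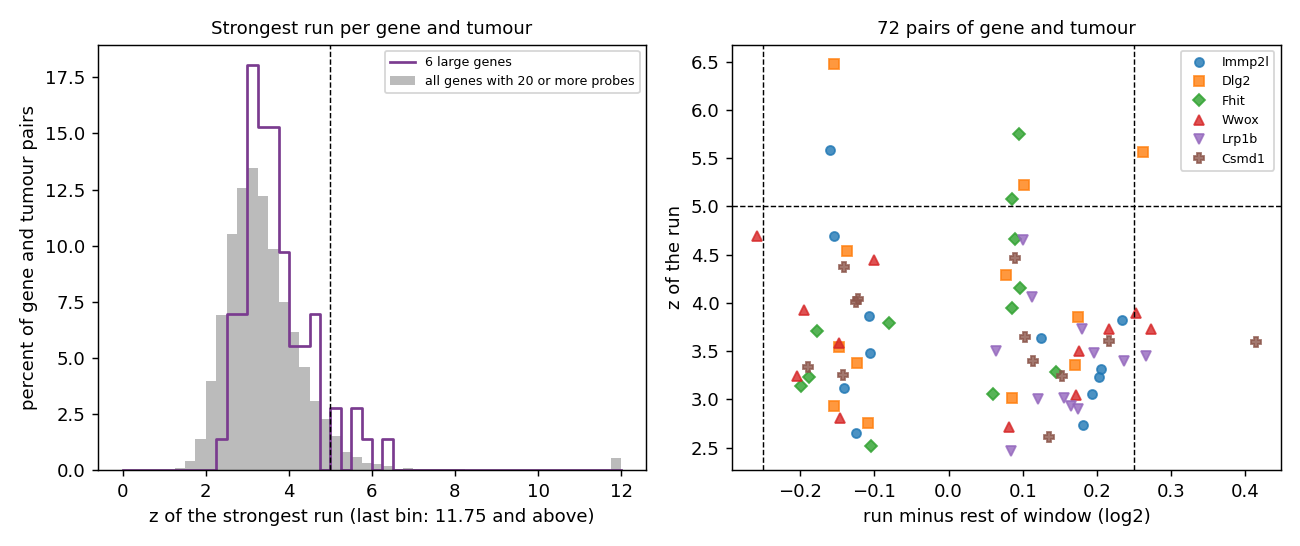
Left, percent of gene and tumour pairs (y) by the z of the strongest run (x), for the 6 genes (line, 72 pairs) and for all genes with at least 20 probes (bars, 12240 pairs). Right, z (y) against the log2 difference of the run from the rest of its window (x) for each of the 72 pairs, with dashed lines at the limits of 5 and 0.25. One point, Dlg2 in KO1111, lies above both limits.

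The called run lay in Dlg2, which encodes a scaffold protein of synapses (PSD-93), in the treated knockout lymphoma KO1111. It was higher than its surroundings, not lower. Its 15 probes (chr7:98622613-98730940, 108 kb) had a mean of 0.30 against 0.04 in the rest of the window, with z = 5.56. Both ends were inside the gene. Seen in the other 11 tumours, the same 15 probes were also above the rest of Dlg2 in each, by 0.03 to 0.19 with a median of 0.09. WT1114, on the same slide as KO1111, had the highest of these 11 differences. The run contains the Dlg2 probe shown above. Without it, the other 14 probes lay below the rest of Dlg2 in KO1097 (-0.022 against -0.009) and KO1134 (-0.032 against -0.009). The same held in WT1121 (-0.035 against -0.02). In every other tumour the 14 probes stayed above the rest of the gene. With probes that were far in 4 or more tumours left out, an alternative added after the data were seen, the run kept 14 probes and fell to a difference of 0.24 and z = 4.96, below both limits.

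**Figure D2:**
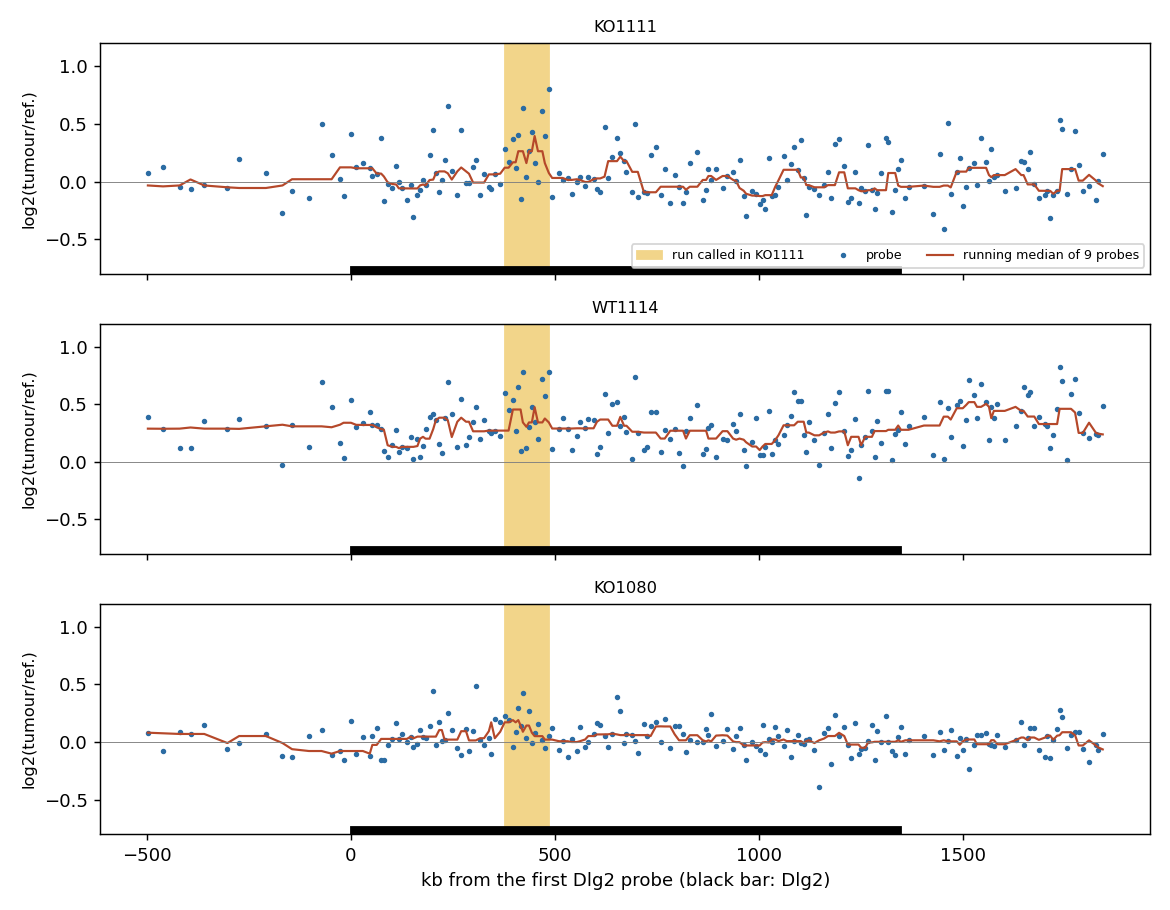
log2(tumour/reference) of each probe (points) and the running median of 9 probes (line) along Dlg2 and 500 kb of flank, against the distance in kb from the outermost Dlg2 probe, in KO1111, WT1114 and KO1080. The shaded stretch is the run called in KO1111, where the probe means were 0.30, 0.46 and 0.12 in these 3 tumours.

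The nearest miss among losses was in Wwox, an oxidoreductase with WW domains that is deleted in many human cancers. In the untreated knockout lymphoma KO1414, 5 probes (chr8:117251668-117290202, 38.5 kb) had a mean of -0.43 against -0.17 in the rest of the window. The difference was -0.26 with z = 4.69, just outside the limit on z. The same 5 probes lay below the rest of Wwox in 10 of the other 11 tumours, with a range of -0.13 to 0.00 and a median of -0.10. KO1414 was lower than all of them. In WT1179 and WT1121, runs of Wwox probes that contain the probe at 117371416 were 0.27 and 0.25 above the rest, with z of 3.73 and 3.90.

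In the remaining genes each of the strongest runs missed at least 1 of the limits. In Fhit, a diadenosine triphosphate hydrolase and tumour suppressor, the highest z was 5.75 in KO1414. That run covered 1093 kb of the gene and was only 0.10 above the rest. In Immp2l, a subunit of the peptidase that trims signal peptides at the mitochondrial inner membrane, the highest z was 5.58 in WT1179. Its run covered the whole gene and was 0.16 below the rest, inside a chromosome that was itself low. In Lrp1b, an endocytic receptor of the LDL receptor family, the highest z was 4.66 in KO1414, for a run over the gene at 0.10 above the rest. In Csmd1, a membrane protein with CUB and Sushi domains that restrains complement, the highest z was 4.47, also in KO1414. The largest difference in Csmd1 was 0.41 in WT1114, over 48.7 kb that contain the probe at 17221593, with z of 3.59. That run was called where values were not limited to 4 noise SDs. In WT1405, 23 Csmd1 probes over 189 kb lay 0.14 below the rest, with z of 4.37. The strongest Csmd1 runs of WT1121 and KO1080 ended at the same probe. Their differences were -0.125 and -0.189, with z of 4.01 and 3.33.

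The smallest change that could have been called with 5 probes depended on the array's noise. It was 0.26 on the array of least noise and up to 0.39 on that of KO1111. The span of 5 neighbouring probes, with medians of 37.1 kb in Dlg2 to 40.5 kb in Wwox, is not a firm lower limit on size. The strongest Wwox run in WT1179, for example, held 5 probes over 29.4 kb. Losses of fewer than 5 probes were not searched for as runs of their own under this rule. Whether such a loss could carry a run of 5 probes past the limits was not tested. A change confined to the unprobed stretch of Immp2l was not detectable. The share of tumour cells in the samples is not given, and levels were not converted to copy numbers.

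Whole chromosomes were also segmented by penalised least squares, a step added after the data were seen, to place each gene within larger changes of its chromosome. The penalty admits a single breakpoint only from a z of about 9.42 to 9.72 and a separate run, with 2 breakpoints, only from about 13.32 to 13.75. No run in the 72 windows reached these values, so the 0 breakpoints found inside the genes and their 500 kb flanks add nothing to the run search. The closest breakpoint lay 1.27 Mb beyond Wwox in the untreated wild-type lymphoma WT1420. The next lay 1.38 Mb before Lrp1b in the treated wild-type lymphoma WT1113. The segment that held each gene was at least 14.8 Mb long in all 72 pairs.

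The levels of the genes followed their chromosomes. Across the 72 pairs the gene mean differed from the chromosome median by a median of 0.02 in size and by at most 0.13. Over all genes with at least 20 probes the median was 0.03. A level at least 0.25 from the array's most frequent level was reached in 8 of the 72 pairs, against 12.2% of pairs over all such genes. A level at least 0.25 from the chromosome median was reached in 0 of 72 pairs, against 1.46% over all such genes. The SE given with a gene mean is over the probes of that gene on 1 array and carries no spread between tumours.

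**Figure D3:**
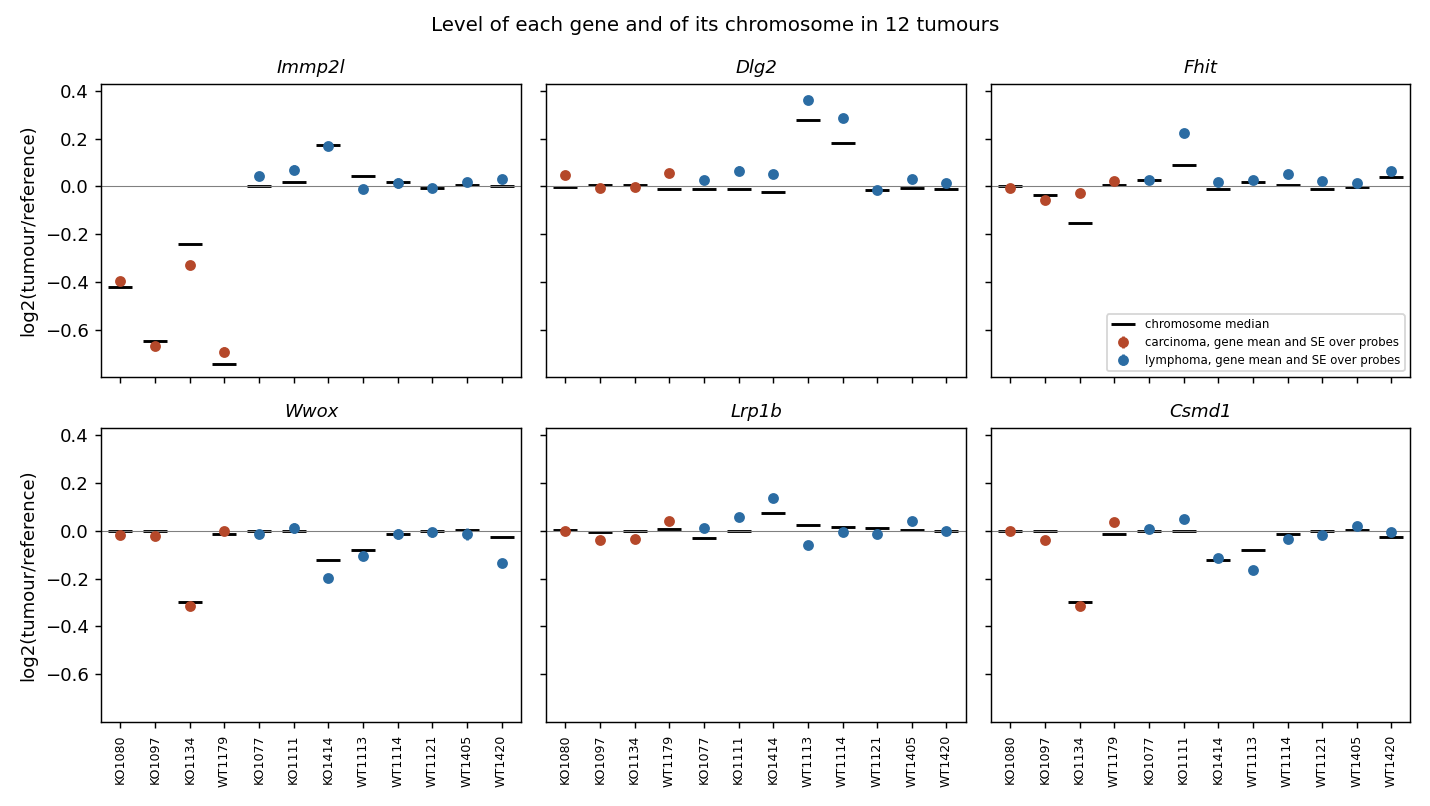
Mean log2(tumour/reference) of each gene (points, bars are the SE over probes and often smaller than the point) and the median of its chromosome (black dashes) in the 4 carcinomas (red) and 8 lymphomas (blue). Immp2l lies between -0.69 and -0.33 in the carcinomas, and Dlg2 reaches 0.36 and 0.29 in WT1113 and WT1114.

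Immp2l was low in all 4 carcinomas, together with the rest of chromosome 12. Over its 94 probes, KO1080 had a mean of -0.40 ± 0.01 (SE), KO1097 of -0.67 ± 0.01, KO1134 of -0.33 ± 0.01 and WT1179 of -0.69 ± 0.02. The chromosome medians in the same order were -0.42, -0.65, -0.24 and -0.74. In the 8 lymphomas Immp2l ranged from -0.01 to 0.17 with a median of 0.03. The highest lymphoma was KO1414, where chromosome 12 stood at 0.17. With levels not set against the chromosome, limma called 625 of 5637 genes (11.1%) for tumour type, Immp2l among them.

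Chromosome 12 was low over its whole length in 3 carcinomas and over the part that holds Immp2l in KO1134. In KO1080 and WT1179 a single segment covered all probes of chromosome 12. In KO1134 the low segment (-0.30) ended 45.9 Mb beyond the gene and was followed by a level of -0.01. In KO1097 the chromosome was low throughout, at -0.65 around the gene and -0.30 before position 16983593. Gene and 500 kb flanks differed by at most 0.02 in the 4 carcinomas.

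**Figure D4:**
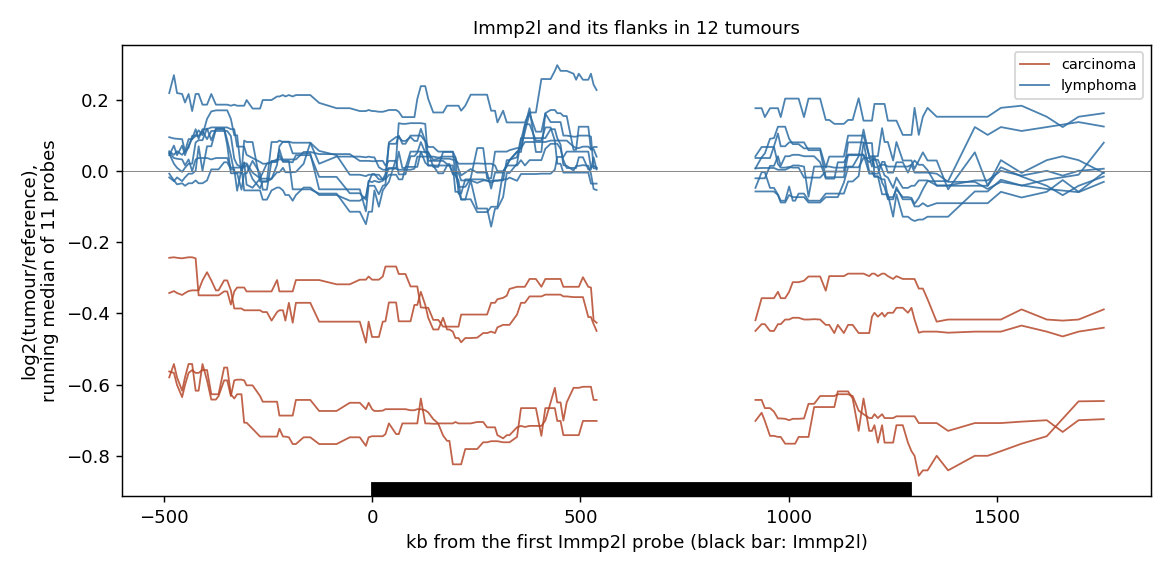
Running median of 11 probes of log2(tumour/reference) along Immp2l and its 500 kb flanks, against the distance in kb from the outermost Immp2l probe, for 4 carcinomas (red) and 8 lymphomas (blue). The break in the lines is the 381 kb without probes, and the carcinomas are low on both sides of it.

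Wwox and Csmd1 lie far apart on the same chromosome and followed it in the tumours where chromosome 8 was low. In KO1134 both were at -0.32, with SE of 0.02 and 0.01, and the chromosome median was -0.30. In KO1414 Wwox was at -0.20 and Csmd1 at -0.11, with the chromosome at -0.12. In WT1113 they were at -0.10 and -0.16, with the chromosome at -0.08. KO1134 was the lowest tumour for both genes, and in KO1414 and WT1113 the lower gene was a different one. In the other 3 carcinomas Wwox lay between -0.02 and 0.00 and Csmd1 between -0.04 and 0.04.

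Wwox departed most from its chromosome in WT1420. Wwox was at -0.14 ± 0.02 there, Csmd1 at 0.00 and the chromosome 8 median at -0.02. Wwox lay in a segment of 14.8 Mb (chr8:104338827-119142107) with a mean of -0.13. The level was -0.01 before this segment and 0.01 after it. The gene and its flanks differed by 0.01 in size in that tumour.

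**Figure D5:**
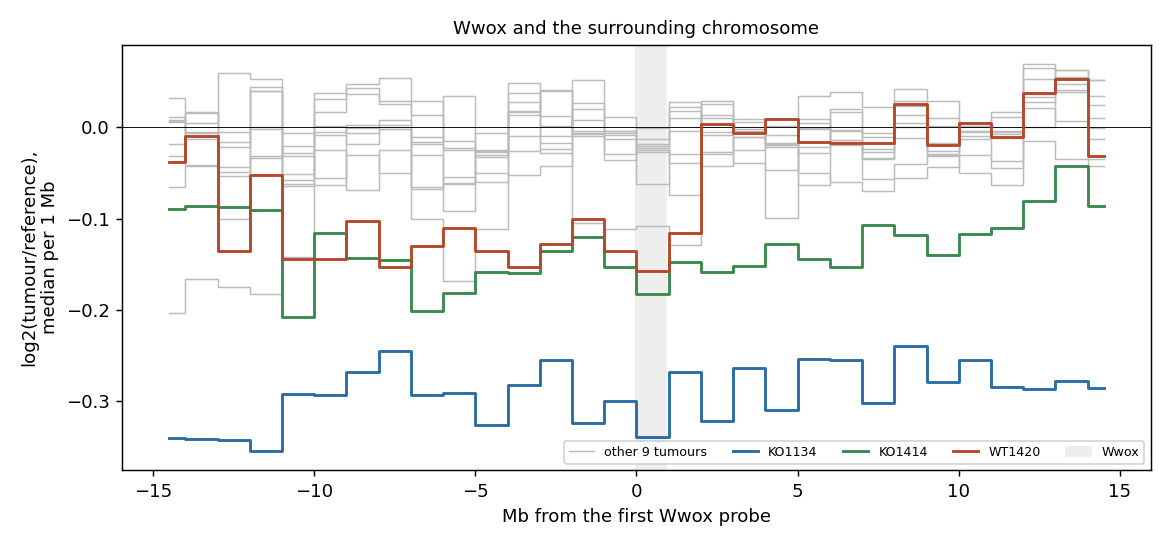
Median log2(tumour/reference) per 1 Mb (y) against the distance in Mb from the outermost Wwox probe (x), with WT1420, KO1134 and KO1414 coloured and the other 9 tumours in grey. WT1420 is low up to the bin that follows Wwox and returns to about 0 after it, whereas KO1134 is low across the whole range.

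Fhit was near 0 in 11 tumours and at 0.22 ± 0.01 in the treated knockout lymphoma KO1111. Among the carcinomas KO1080 had a level of -0.01, KO1097 of -0.06, KO1134 of -0.03 and WT1179 of 0.02. The 8 lymphomas ranged from 0.01 to 0.22 with a median of 0.03. KO1111 stood apart from the other lymphomas, whose highest value was 0.06. In KO1111 Fhit lay in a segment of 45.6 Mb with a mean of 0.20, followed by a level of -0.22. The drop after the segment was not particular to KO1111. In KO1077, KO1414, WT1114, WT1121 and WT1420 the segment was 45.47 to 45.65 Mb long, and levels of -0.49 to -0.28 followed. The segment means in those tumours were only -0.02 to 0.04. In KO1111 and in those tumours the segment ended between chr14:53992339 and chr14:54181322. That stretch lies within the T cell receptor alpha and delta locus, among the antigen receptor loci mentioned above. The cause of the drop was not tested. In WT1113 and WT1405 the segment was 21.7 and 61.3 Mb long, followed by higher levels of 0.13 and 0.94. The step seen in WT1405 was not particular to it. In the carcinomas KO1080, KO1097 and WT1179 the segment was also 61.3 Mb long, followed by levels of 0.89, 0.87 and 0.92. In KO1134 the chromosome 14 median was -0.15, but the segment of 53.1 Mb that held Fhit was at 0.00, and the lower part (-0.30) began 49.6 Mb beyond the gene.

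Fhit was also the member whose level against its own flanks differed most between tumour types. For gene minus flanks, KO1080 had 0.03, KO1097 had 0.00, KO1134 had -0.03 and WT1179 had 0.02. In the 8 lymphomas it was positive throughout, from 0.05 to 0.08 with a median of 0.07. The difference of carcinomas minus lymphomas on this scale was -0.06 ± 0.02 (SE), with an adjusted p of 0.0688 in limma over 5637 genes, which misses 0.05. On this scale limma called 645 of the 5637 genes for tumour type, which is 11.4%. All carcinomas were on slide 1.

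Dlg2 was raised in 2 lymphomas on slide 2, WT1113 at 0.36 ± 0.01 and WT1114 at 0.29 ± 0.02, where the chromosome 7 medians were 0.28 and 0.18. Its flanks were higher still, at 0.46 and 0.36. The other 6 lymphomas lay between -0.02 and 0.07 and the carcinomas between -0.01 and 0.05. In these 2 tumours Dlg2 lay in raised segments of 34.9 Mb (mean 0.41) and 46.4 Mb (mean 0.30).

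Lrp1b stayed closest to 0 among the 6 genes in its extremes. Among the carcinomas KO1080 was at 0.00, KO1097 at -0.04, KO1134 at -0.03 and WT1179 at 0.04. The lymphomas ranged from -0.06 in WT1113 to 0.14 in KO1414, with a median of 0.01. Chromosome 2 stood at 0.08 in KO1414 and at 0.02 in WT1113. Set against the chromosome, the 3 knockout lymphomas lay at 0.04 to 0.06 and the 5 wild-type lymphomas at -0.08 to 0.04.

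The design compares tumour types, genotypes and treatments. Gene means minus the chromosome median were fitted with limma in 1 model with these 3 terms, over 5637 autosomal genes with at least 5 probes and all 12 tumours. Of the 6 members, 0 were called for tumour type at an adjusted p of 0.05, against 1.05% of all genes tested. The members' differences of carcinomas minus lymphomas ran from -0.03 in Dlg2 to 0.01 in Csmd1 with SEs of 0.02 to 0.04, and adjusted p-values in limma from 0.486 to 0.98. Their median was -0.02, and the median over all genes was also -0.02.

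For genotype, 0 of the 6 members were called, against 0.124% of all genes. Knockout minus wild type ran from -0.01 in Wwox to 0.04 in Lrp1b, with SEs of 0.02 to 0.03 and adjusted p-values from 0.763 to 0.996. Restricted to the 8 lymphomas, the Lrp1b difference was 0.08 with an unadjusted p of 0.0211 and an adjusted p of 0.449 in limma.

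For treatment, limma called 0 of the 6 members and 0.0% of all genes, with 972 of 5637 genes at an unadjusted p under 0.05. Treated minus untreated ran from -0.04 in Lrp1b to 0.06 in Wwox. Wwox was at 0.06 ± 0.02 (SE), with an unadjusted p of 0.0272 and an adjusted p of 0.244. All 3 untreated lymphomas were on slide 3, where WT1121 was the only treated tumour. Treatment can therefore be told apart from slide only through WT1121. With slide as a fixed block the Wwox difference was 0.0589. The 3 untreated lymphomas had Wwox at -0.08 in KO1414, -0.02 in WT1405 and -0.11 in WT1420 against the chromosome, and the 9 treated tumours lay between -0.02 and 0.01. Without WT1420, which carries the 14.8 Mb segment, the Wwox difference was 0.04 with an adjusted p of 0.607. Set against the flanks in place of the chromosome, Lrp1b had the lowest treatment p of the members, with a difference of -0.07 ± 0.02 (SE) and an adjusted p of 0.0993 in limma, where 3.46% of all genes were called.

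A list of 50 other large genes, chosen with earlier results of these data known, gave 48 names on the array, 46 of them with at least 20 probes. The 48 spanned 150 kb in Lrrc4c to 2223 kb in Cntnap2, against 900 to 2047 kb in the 6 members. The run rule called 3 of the 552 pairs of the 46 genes, which is 0.543%. The strongest was in Fam190a (Ccser1), a very large gene also known as a fragile site gene in human. In the untreated wild-type lymphoma WT1405, 6 probes inside Fam190a (chr6:61407460-61462866, 55.4 kb) had a mean of -0.07 against 0.55 in the rest of the window, with z = 8.98. Chromosome 6 was at 0.53 in this tumour. In the other 11 tumours the same probes differed from the rest of the gene by -0.10 to 0.05.

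The remaining 2 calls on that list were Gphn in KO1080 (difference -0.30, z = 5.27) and Robo1 in WT1405 (0.26, z = 5.14). The probes of the Gphn run lay below the rest of the gene in all 12 tumours. Those of the Robo1 run lay above it in all 12, as did the Dlg2 run with its 15 probes. In limma, 0 of the 48 list genes were called for tumour type, genotype or treatment.

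Runs inside or across other genes were called on the same arrays at higher z. Lphn3, an adhesion G protein-coupled receptor, rose from -0.54 to 0.56 within its window in WT1179 (z = 31.9). Esr1, the oestrogen receptor, and X51976 had z of 20.9 and 24.0 in KO1134, Shisa9 had 27.3 in KO1097 and Shroom3 had 20.6 in WT1179. The highest z among the 72 member pairs was 6.48, for a run over all of Dlg2 and 19 of its 60 flank probes in WT1113, at 0.15 below the rest of the window.

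Profiles of probe values within a gene resembled each other between tumours on the same slide. The median Pearson r over 18 pairs of tumours on the same slide was 0.662 in Fhit to 0.763 in Csmd1. Over 48 pairs on different slides it was 0.21 in Immp2l to 0.516 in Csmd1. KO1111 and WT1114 formed the most similar pair in all members but Immp2l, with r up to 0.929 in Wwox. All arrays share the reference DNA and the probes, and these r values are descriptions.

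Across the 12 tumours, chromosome-relative levels of Lrp1b and Csmd1 had r = 0.876, and those of Immp2l and Csmd1 r = 0.751, while Wwox had r from -0.02 to 0.22 with the other 5. Among genes on other chromosomes, the levels most like each member were those of Sgcz and Mgat4c for Lrp1b (r = 0.971 and 0.954) and Zfpm2 and Kcnq1 for Csmd1 (both 0.957). They were 4932438A13Rik and Dtna for Dlg2 (0.928 and 0.920) and Slc14a2 and Adamts12 for Immp2l (0.895 and 0.875). For Fhit they were Dnahc11 and Rapgef5 (0.836 and 0.714), and for Wwox Wdr70 and ENSMUST00000114610 (0.812 and 0.771). These were the highest values among the 945 to 970 genes compared per member, over 12 tumours that share slides and reference.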

How the data were processed

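The intensity values, as deposited, were made with Agilent Feature Extraction 10.7.1.1 (CGH_107_Sep09), per the file headers, with background subtracted, spatial trend removed and dyes normalized linearly, at mm9 positions. The deposited LogRatio column, a log10 value, was not analysed here. The authors' series-wide table holds log2 ratios that correlated at 0.99994 or more with the scanner values. Its column medians lay between -0.02 and 0.03, uncentred, and it served as an alternative. Here log2(red/green) was taken without control and outlier spots, spots of 1 probe were averaged, and each array was centred on its mode (51-probe running medians, kernel SD 0.02). Values were limited to 4 noise SDs for the run search only. Chromosome segments used a penalty of 10 times log(n) times the noise variance. Python 3.11.15, R 4.3.3 and limma 3.58.1 were used; scan and fit were tested on simulated data. Genes spanning over 3 Mb or several chromosomes were left out. Each tumour is 1 animal and 1 array, so that p-values rest on the spread between tumours. The members, lists and named genes (called runs, else the highest z, and the 2 most alike genes) were chosen with earlier results of these data known. Alternatives covered centring, background, spots, probes, run limits, gene filters, slides and leaving out tumours.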

Additional observations from a re-analysis of the deposited data

Results flagged for a closer look

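Among 24 groups of 4 or 8 tumours examined for the 6 genes (level, and level minus the chromosome median, in carcinomas and in lymphomas), 5 held a tumour set apart by a gap that is large against the group's range. Chance gives about 1 in 20 groups; these groups are not independent, since both scales use the same tumours and Wwox and Csmd1 share a chromosome, and an excess was not tested. Fhit in KO1111 was such a case on both scales, with a level of 0.22 against 0.06 in the next lymphoma, and 0.13 against 0.05 relative to chromosome 14. Immp2l in KO1414 stood at 0.17 among the lymphomas, the next being 0.07. Among the carcinomas, Wwox in KO1134 stood at -0.32 with the next at -0.02. Relative to chromosome 8, Wwox in WT1179 was at 0.012 and the next carcinoma at -0.016, where the SE over the 90 probes was 0.0163 in WT1179.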

How the results depend on the processing

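No paired analysis was possible because each replicate number is an animal number that occurs once. The count of member runs, 1 in the setting reported, was 0 with normexp background correction, with each probe's median over the arrays subtracted, with a z of at least 6, with a difference of at least 0.4, and, added after the data were seen, with probes far in 4 or more tumours left out. It was 2 with a z of at least 4 or noise taken from the window (Wwox in KO1414 added), with a difference of at least 0.15 (Dlg2 in WT1113 added) and with values not limited (Csmd1 in WT1114 added). Leaving out each tumour gave 0 to 1, with 0 only without KO1111. Each array was searched on its own, so that this outcome was fixed in advance. For tumour type, 1 member was called where levels were not set against the chromosome, Immp2l at -0.59 with an adjusted p of 0.000187 in limma; 625 of 5637 genes (11.1%) were called in that setting, 620 of them lower in carcinomas. For genotype and treatment 0 members were called in each of 27 alternatives. Among 5 member contrasts followed singly, signs turned for Dlg2 by tumour type (0.0285) and Lrp1b by genotype (-0.0031) when set against flanks, for Immp2l by tumour type with normexp (0.0015) and without KO1134 (0.0082) or KO1111 (0.0026), and for Fhit by tumour type without KO1111 (0.005). Leaving out each tumour gave -0.0547 to 0.0082 for Immp2l and -0.0532 to 0.005 for Fhit, and the cause was not tested. Over all 18 member contrasts, 46 of 480 alternative values had the opposite sign, in 16 contrasts, with adjusted p-values of 0.359 or more in limma. Wwox by treatment kept its sign in 27 alternatives (0.04 to 0.09). Over all genes, calls ranged from 0 to 1227 for tumour type (59 as reported, 1 with slide as a random block), 1 to 23 for genotype (7) and 0 to 585 for treatment (0). The minimum of 5 probes per run was a choice; with at least 3 probes the count of member runs was 1. Probe noise and the limit of 0.25 set the smallest change that can be called.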
